A study of Mus musculus with 2 samples.

Results

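The 8 genes described here encode the metabotropic GABA-B receptor (Gabbr1, Gabbr2) and cytoplasmic auxiliary subunits of that receptor (Kctd8, Kctd12, Kctd16). They also encode the gephyrin scaffold of inhibitory synapses, with an adhesion protein and an exchange factor found at those synapses (Gphn, Slitrk3, Iqsec3). They were chosen by symbol, and all 8 were found among the 55536 genes of the deposited tables. The samples were taken from the cortex of the left cerebral hemisphere in 2 male mice of the F1 hybrid strain B6CASTF1/J, aged 8 to 10 months and numbered 2 and 4 in the labels. They are called replicate 1 and replicate 2 and form 1 group with no treatment and no control, so no condition was compared and no test was possible. Because the donor label is identical for both, only the animal numbers show that they are separate animals. Each library was made from 300 ng of total RNA and held 26925514 (replicate 1) or 30143684 (replicate 2) expected counts. Levels are in TPM, an abundance normalised by transcript length and library size, written for replicate 1 and then replicate 2, and ± marks the SD over the 2 animals (n = 2).

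GABA-B receptors are G protein-coupled receptors that work as a heterodimer: the product of Gabbr1 binds GABA, and the product of Gabbr2 couples to Gi/o proteins and carries the complex to the cell surface. Through these G proteins the receptor opens inwardly rectifying potassium channels, inhibits presynaptic calcium channels and lowers adenylyl cyclase activity, while the Kctd proteins bind the C-terminal tail of the Gabbr2 subunit and shape the timing of the response. Gephyrin forms a lattice under the postsynaptic membrane that holds fast, ionotropic GABA-A and glycine receptors, and it also makes the molybdenum cofactor in many tissues.

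Gabbr1 was the most abundant of the 8 genes and Kctd8 the least. Gabbr1 stood at 315.84 and 331.14 TPM, above 99.3% of the 22028 protein-coding genes, and Gabbr2 at 95.43 and 97.30 TPM, above 95.5% of them. Iqsec3 followed at 55.21 and 56.85 TPM and Kctd16 at 50.94 and 55.18 TPM. Below these lay Gphn at 27.52 and 30.07 TPM, Slitrk3 at 24.24 and 28.47 TPM, and Kctd12 at 23.43 and 22.91 TPM. Kctd8 stood at 4.08 and 5.24 TPM, above 51.5% of protein-coding genes. The order of the 8 genes was the same in both animals and in both deposited quantifications. Among neighbours in that order, only the values of Gphn and Slitrk3 overlapped between the animals, and Slitrk3 and Kctd12 were 0.81 TPM apart in replicate 1. Full-length coding transcripts, those with at least 80% of the gene's longest coding sequence, were also summed alone (a choice made after seeing the data). By mean TPM Iqsec3 then fell from the third to the sixth place, because 2 of its 3 main transcripts carry a short reading frame. Its full-length level was 25.15 and 26.38 TPM, above Slitrk3 in replicate 1 and below Slitrk3 in replicate 2.

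**Figure D1:**
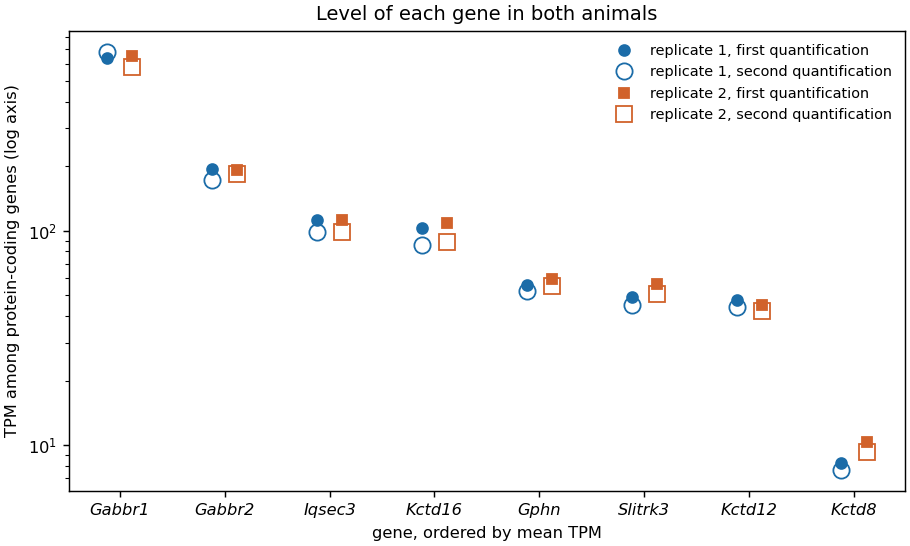
TPM of the 8 genes, rescaled to protein-coding genes so that both quantifications share a base (log axis), with circles for replicate 1 and squares for replicate 2, filled for the first quantification and open for the second. Gabbr1 lies above all others and Kctd8 below all others in every series of points.

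Gabbr1 (ENSMUSG00000024462.17, chr17:37045966-37075067, plus strand, mm10) has alternative promoters that give receptor subunits with different N-termini. Transcripts from the first promoter encode GABA-B1a, whose N-terminus carries a pair of sushi domains known for binding partners outside the cell and for placing the receptor at axon terminals. Those from the second promoter encode GABA-B1b, which lacks them. In the GENCODE M21 annotation, the start of Gabbr1-203 (1b) lies 4665 bases after that of Gabbr1-201 (full-length 1a), inside an intron of the longer form. Coding parts that set the 1a and 1b forms apart are shown, with the part where Gabbr1-209 leaves the full-length 1a form. The shares below rest also on reads from stretches that are not shown. Exon 2 (chr17:37047454-37047657) and exon 3 (chr17:37048421-37048606) of the 1a coding sequence have 204 and 186 bases and hold most of the 1a-specific coding sequence. The 1b-specific coding start (chr17:37050854-37050998, 145 bases) is given with its start codon in capitals. The short-form end is where Gabbr1-209 reads on past exon 3 (15 bases of which are shown first) into the intron, up to a stop codon in capitals (chr17:37048607-37048824). All are on the plus strand, 5′ to 3′, from the GENCODE M21 transcript sequences.
1a coding exon 2: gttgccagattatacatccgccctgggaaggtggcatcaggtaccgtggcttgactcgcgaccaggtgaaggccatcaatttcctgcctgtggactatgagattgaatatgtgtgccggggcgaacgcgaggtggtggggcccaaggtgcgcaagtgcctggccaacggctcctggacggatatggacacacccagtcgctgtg
1a coding exon 3: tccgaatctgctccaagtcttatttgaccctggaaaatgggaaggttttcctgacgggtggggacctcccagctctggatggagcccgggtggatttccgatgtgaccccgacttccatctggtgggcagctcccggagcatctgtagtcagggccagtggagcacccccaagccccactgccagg
1b coding start: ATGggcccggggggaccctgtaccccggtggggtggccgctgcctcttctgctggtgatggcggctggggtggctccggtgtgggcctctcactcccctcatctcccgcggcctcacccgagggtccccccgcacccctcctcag
short-form end: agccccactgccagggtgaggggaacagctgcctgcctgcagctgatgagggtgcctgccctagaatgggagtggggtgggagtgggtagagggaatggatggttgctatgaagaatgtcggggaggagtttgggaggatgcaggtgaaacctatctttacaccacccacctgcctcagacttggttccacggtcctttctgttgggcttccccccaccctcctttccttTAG

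The second promoter gave most of the Gabbr1 RNA. Gabbr1-203, the full-length 1b form of 844 codons, stood at 182.00 and 192.61 TPM, 57.9% ± 0.384 of the gene. The next transcript was not the full-length 1a form but Gabbr1-209, at 62.65 and 61.87 TPM (19.3% ± 0.814). This transcript has 4 exons and a reading frame of 229 codons that holds the exons shown above and ends in the intron, before the sequence of the transmembrane part. Gabbr1-201, the annotated full-length 1a form of 960 codons, stood at 29.23 and 32.76 TPM (9.57% ± 0.452), just under the share of 10% used for naming transcripts, and is named here for its class. Gabbr1-202, a shorter copy of Gabbr1-209 with the same reading frame, stood at 12.69 and 17.37 TPM.

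**Figure D2:**
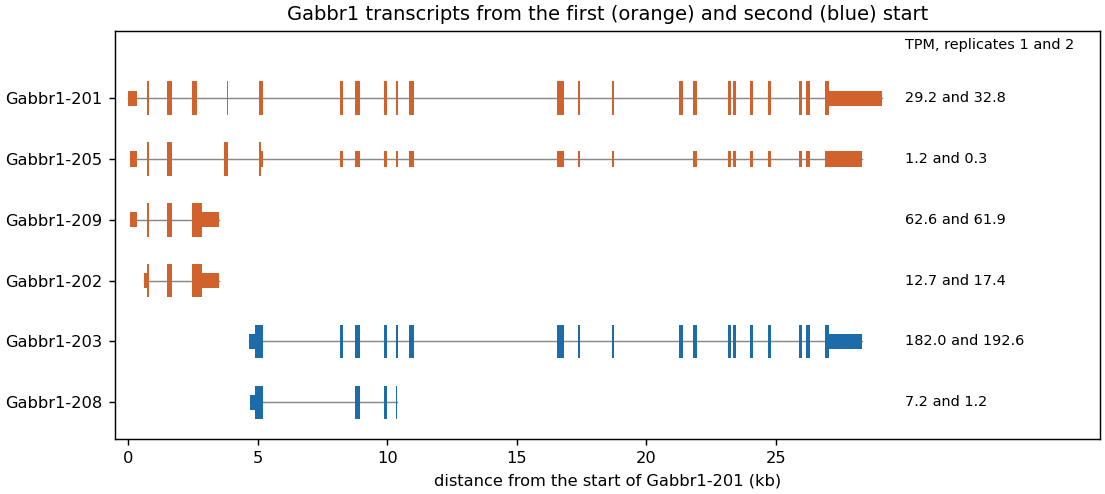
Exons of 6 Gabbr1 transcripts by distance from the start of Gabbr1-201 in kb, with tall boxes for coding and low boxes for noncoding sequence, and the TPM of each in both animals. Gabbr1-203 starts inside the gene and has the highest level, and Gabbr1-209 ends within an intron of Gabbr1-201.

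Among coding Gabbr1 transcripts, those from the first promoter held 35.6% and 36.6% of TPM, or 36.1% ± 0.727. The full-length forms gave another picture: Gabbr1-201 was 13.8% and 14.5% of the sum of Gabbr1-201 and Gabbr1-203. The difference came from the short forms Gabbr1-202 and Gabbr1-209, which together stood at 2.50 ± 0.112 times the TPM of Gabbr1-201. Counted as reads rather than per length, the order turned, and the short forms had 0.713 ± 0.0344 times the expected counts of Gabbr1-201. The second quantification put the first-promoter share at 36.0% ± 0.0364 and the short forms at 4.10 ± 0.220 times Gabbr1-201. It put Gabbr1-201 lower, at 10.6% and 9.86% of the sum of Gabbr1-201 and Gabbr1-203. The last exon of the short forms has 1047 bases against 186 in Gabbr1-201, so most of it lies in sequence that is intronic in the full-length form, and the part that unspliced RNA of that form has in these values was not tested. Among noncoding forms, Gabbr1-211, annotated as a retained intron, differed most between quantifications. It stood at 6.76 and 7.13 TPM in the first and at 53.7 and 0 TPM in the second.

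Gabbr2 (ENSMUSG00000039809.10, chr4:46662305-46991873, minus strand) was nearly a single transcript. Gabbr2-201, with 19 exons and 940 codons, stood at 93.35 and 95.62 TPM, 98.0% ± 0.320 of the gene. In the second quantification it held 97.9% and 93.0%. There Gabbr2-203, a form without counts in the first quantification, stood at 0 and 7.19 TPM. The level of Gabbr1 was 3.31 and 3.40 times that of Gabbr2, a ratio of 3.36 ± 0.0662. The higher level of Gabbr1 was seen in both animals and in both quantifications, but its size depended on which Gabbr1 transcripts were counted. With full-length coding transcripts alone the ratio was 2.31 ± 0.0666, and in the second quantification with all transcripts it was 3.93 in replicate 1 and 3.18 in replicate 2.

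Of the auxiliary subunits, Kctd16 was the most abundant per length and Kctd8 the least. The Kctd16 level was 11.5 ± 1.38 times that of Kctd8, and Kctd12 stood at 0.438 ± 0.0317 of Kctd16. By reads the order of Kctd12 and Kctd16 turned, with 2456 and 2613 expected counts for Kctd12 against 1716 and 1908 for Kctd16, since Kctd12 is a single-exon RNA of 6057 bases and the mean length of Kctd16 transcripts was 2014.7 and 1906.22 bases. Kctd12 (ENSMUSG00000098557.1, chr14:102976581-102982637, minus strand), the subunit known for fast desensitisation of the receptor's potassium current, was measured entirely from Kctd12-202. The summed TPM of the 3 Kctd genes was 0.822 and 0.856 of the Gabbr2 level. This sum and the ratio of Kctd16 to Kctd8 count all transcripts. With full-length coding transcripts alone Kctd16 stood at 37.73 and 36.56 TPM, so both would be lower.

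Kctd16 (ENSMUSG00000051401.7, chr18:40256962-40531630, plus strand), a subunit known for linking the receptor to other membrane proteins, was spread over several transcripts. Kctd16-206 (427 codons) led at 29.72 and 28.82 TPM, 55.3% ± 4.32 of the gene. Kctd16-201, with a reading frame of the same length, added 8.01 and 7.74 TPM. The second quantification gave Kctd16-201 less, at 0.933 and 2.52 TPM (3.31% ± 1.37 of the gene), and Kctd16-206 more, at 71.0% ± 3.60, and by expected counts Kctd16-206 held 79.2% ± 2.93. Kctd16-202, a single exon with 140 codons, took 25.1% ± 0.0539 of the gene's TPM but 8.40% ± 0.330 of its expected counts. Kctd16-204, a noncoding form, had no counts in replicate 1 and 72.35 expected counts in replicate 2. Kctd16 also overlaps 3 annotated genes, 2 of them on the opposite strand, with 300 and 425 expected counts in sum. Of these counts 290 and 422 belonged to AC164106.1 on the same strand, which a strand setting would not tell apart from Kctd16. Whether counting used the strand is not given in the sources used here.

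Kctd8 (ENSMUSG00000037653.7, chr5:69109285-69341679, minus strand), an auxiliary subunit not known for the fast desensitisation that Kctd12 brings, rested on 198 and 263 expected counts, the fewest of the 8 genes. Kctd8-201, with 476 codons, stood at 4.08 and 4.52 TPM. Kctd8-202, which ends in another last exon, had no expected counts in replicate 1 and 24.47 in replicate 2. Its deposited TPM interval reached up to 0.319 in replicate 1 and ran from 0.295 to 1.31 in replicate 2. The gene spans 232395 bases and overlaps 8 annotated genes with 49 and 86 expected counts in sum.

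**Figure D3:**
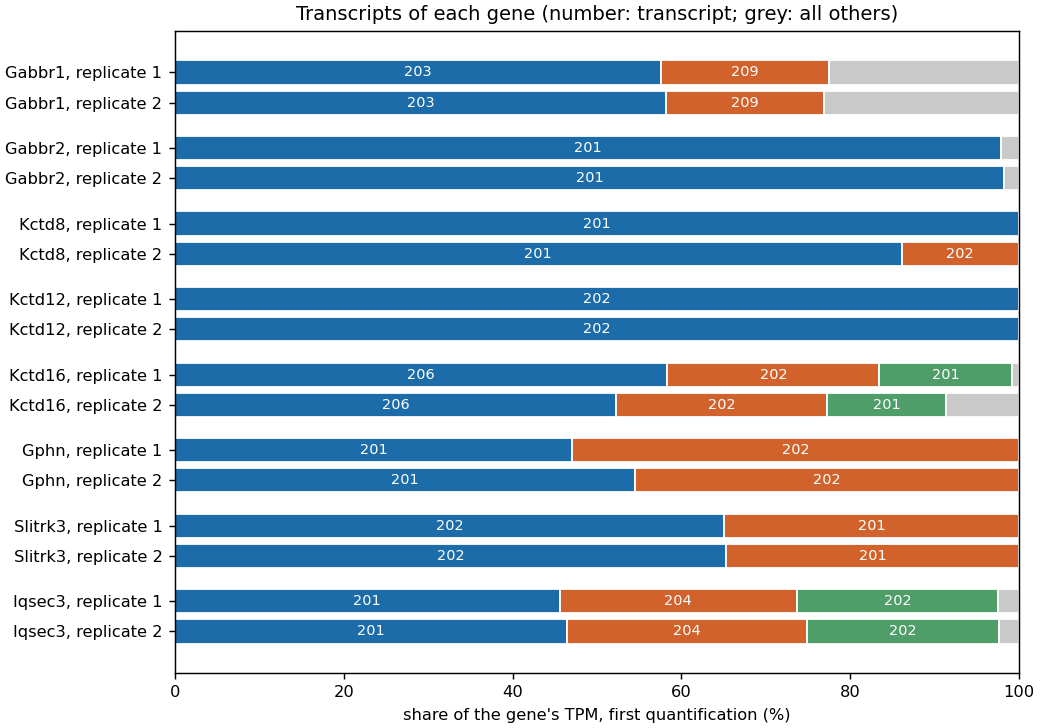
Share of each gene's TPM held by its transcripts in each animal (x axis, percent, first quantification), with the transcript number inside each bar, colours for the transcripts named by the 10% rule and grey for all others. Gabbr2, Kctd8 and Kctd12 are each led by 1 transcript with over 86% in both animals, and Gphn changes its leading transcript between the animals.

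Gphn (ENSMUSG00000047454.12, chr12:78226379-78684772, plus strand) was split almost evenly between 2 coding transcripts that differ in cassette exons. Gphn-202 holds an exon of 108 bases (chr12:78493950-78494057), and Gphn-201 instead holds, further downstream, adjacent exons of 57 bases (chr12:78522898-78522954) and 42 bases (chr12:78532657-78532698). All 3 lengths are multiples of 3, so the reading frame continues with or without them, and the forms have 772 and 769 codons. The exons are shown in capitals with 15 bases of the spliced neighbours on each side, plus strand, from the GENCODE M21 transcripts.
Gphn-202 exon: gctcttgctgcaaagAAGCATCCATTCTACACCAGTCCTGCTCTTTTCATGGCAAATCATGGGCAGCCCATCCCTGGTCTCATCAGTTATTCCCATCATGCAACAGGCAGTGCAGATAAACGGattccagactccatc
Gphn-201 first exon: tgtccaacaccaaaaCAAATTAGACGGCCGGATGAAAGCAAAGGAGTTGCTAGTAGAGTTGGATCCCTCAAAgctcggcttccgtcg
Gphn-201 second exon: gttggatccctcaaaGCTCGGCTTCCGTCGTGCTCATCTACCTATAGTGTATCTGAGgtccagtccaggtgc

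Gphn-201 stood at 12.94 and 16.41 TPM and Gphn-202 at 14.59 and 13.67 TPM. Gphn-202 was the higher in replicate 1 and Gphn-201 in replicate 2, with Gphn-201 at 47.0% and 54.6% of their sum. The second quantification gave the same turn, at 43.2% and 50.9%. The deposited intervals of the 2 forms overlapped in each animal, at 10.6 to 14.3 against 11.9 to 15.9 TPM in replicate 1 and 13.9 to 17.7 against 11.2 to 15.2 TPM in replicate 2, so neither form led beyond its own uncertainty. The 2 forms also differ at the 5′ end, where Gphn-201 starts 274 bases earlier. Gphn overlaps 6 annotated genes with 160 and 230 expected counts in sum, against 1611 and 1927 for Gphn itself.

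Iqsec3 (ENSMUSG00000040797.16, chr6:121372933-121473678, minus strand), an exchange factor for the small GTPase ARF6 that binds gephyrin, had 51.6% of its RNA in transcripts annotated for nonsense-mediated decay, the pathway that degrades RNAs with an early stop codon. Iqsec3-202 and Iqsec3-204 lack a coding exon of 271 bases (chr6:121428297-121428567). Since 271 divided by 3 leaves 1, the frame shifts where it is left out. The exon is shown in capitals with 14 bases of its spliced neighbours on each side. Beside it stands the junction of Iqsec3-204 without that exon, with the stop codon it brings into frame in capitals. Both are from the minus strand of the GENCODE M21 transcripts.
Iqsec3-201 exon: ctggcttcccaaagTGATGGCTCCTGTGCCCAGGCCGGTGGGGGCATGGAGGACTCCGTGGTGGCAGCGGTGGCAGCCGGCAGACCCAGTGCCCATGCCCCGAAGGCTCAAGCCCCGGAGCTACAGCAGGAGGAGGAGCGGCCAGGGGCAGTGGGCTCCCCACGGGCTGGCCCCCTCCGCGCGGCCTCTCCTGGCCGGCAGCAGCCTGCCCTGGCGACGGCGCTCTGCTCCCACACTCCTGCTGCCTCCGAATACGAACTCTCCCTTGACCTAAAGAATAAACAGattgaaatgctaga
Iqsec3-204 junction: ctggcttcccaaagattgaaatgcTAG

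The coding form Iqsec3-201 (1195 codons) stood at 25.15 and 26.38 TPM, 46.0% ± 0.595 of the gene. Iqsec3-204 stood at 15.55 and 16.22 TPM, and Iqsec3-202 at 13.12 and 12.93 TPM, each with a reading frame of 211 codons that ends at the stop shown above. Together the forms without the exon held 51.9% and 51.3% of the gene's TPM (51.6% ± 0.469). The share was 51.9% ± 0.718 in the second quantification and 51.8% ± 0.485 by expected counts. The split between the forms without the exon was less firm: Iqsec3-202, which alone holds an exon of 950 bases (chr6:121378960-121379909), had 23.3% ± 0.724 of the gene in the first quantification and 28.7% ± 1.54 in the second. Iqsec3 as a whole stood at 1.95 ± 0.0817 times the Gphn level, but Iqsec3-201 alone, at 25.15 and 26.38 TPM, lay below Gphn in both animals. The deposited intervals of Iqsec3-201 and Gphn overlapped in each animal. They were 20.8 to 27.7 against 25.5 to 29.3 TPM in replicate 1. In replicate 2 they were 22.2 to 28.3 against 27.9 to 31.3 TPM.

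Slitrk3 (ENSMUSG00000048304.8, chr3:73047265-73057803, minus strand), a postsynaptic adhesion protein known for inducing inhibitory synapses through the receptor phosphatase encoded by Ptprd, was close in level to Gphn. The ratio of Gphn to Slitrk3 was 1.14 and 1.06, or 1.10 ± 0.0559. Both annotated Slitrk3 transcripts carry the same coding sequence of 980 codons and differ in the first exon (256 bases in Slitrk3-201 and 401 in Slitrk3-202) and at the 3′ end, where Slitrk3-202 runs 860 bases further. Slitrk3-202 stood at 15.76 and 18.58 TPM and Slitrk3-201 at 8.48 and 9.89 TPM in the first quantification. The second quantification turned this order, with Slitrk3-202 at 42.4% and 45.8% of the gene against 65.0% and 65.3% in the first, so which of the forms led could not be settled.

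The levels of all 8 genes were close in the 2 animals. On TMM-scaled counts 0 of the 8 differed by 2-fold or more, beside 122 (0.861%) of the 14163 genes that averaged 50 normalised counts or more. The largest difference was that of Kctd8, with a log2 ratio of replicate 1 over replicate 2 of -0.24 and a 95% counting interval from -0.52 to 0.03, followed by Slitrk3 at -0.19 (-0.28 to -0.10). Gphn was at -0.09, Gabbr1 at -0.04, Iqsec3, Gabbr2 and Kctd16 at 0.01, and Kctd12 at 0.08. The median size of the difference was 1.04-fold over the 8 genes and 1.08-fold over all genes tested. These medians are not matched for depth. Kctd8 averaged 229 normalised counts and the others of the 8 genes 1763 to 18780, while the genes tested reached down to 50. The counting interval, which covers counting error only, lay off 0 for 2 genes, Slitrk3 and Gabbr1. With spike-in scaling the median over all genes was 0.07 and Gabbr1 turned to 0.04, while Slitrk3 stayed below 0 at -0.12.

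**Figure D4:**
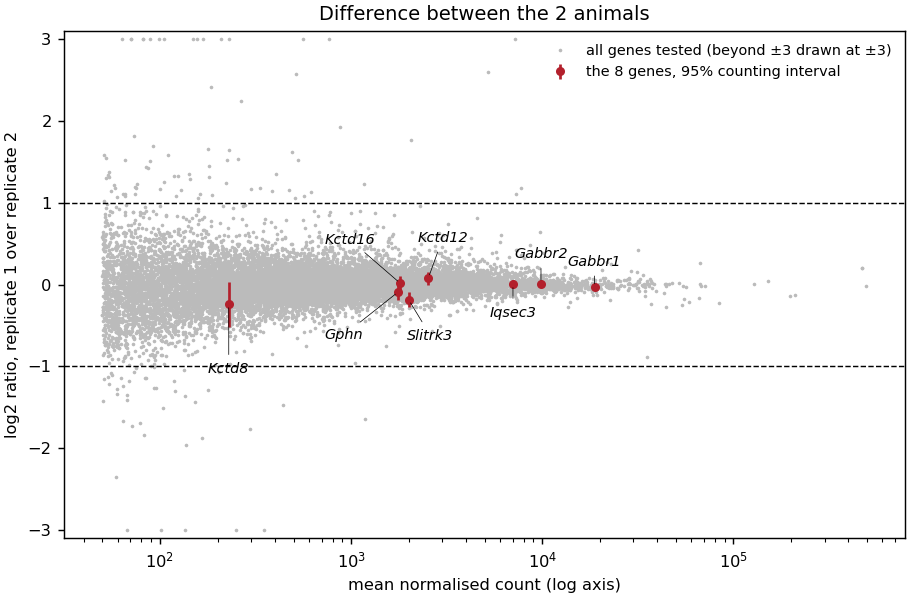
Log2 ratio of replicate 1 over replicate 2 against mean normalised count (log axis) for all 14163 genes tested in grey and the 8 genes in red, with 95% counting intervals and dashed lines at 2-fold. The 8 genes lie between -0.24 and 0.08, within the grey band.

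Genes listed for signalling by the receptor, Rgs genes among them, were nearly all present. Of the 23 genes of this list 22 reached 1 TPM in both animals, with a median of 79.0 TPM. The highest were the G protein subunit genes Gnb1 at 412 and 403 TPM, Gnao1 at 314 and 316 TPM, and Gnb2 at 288 and 309 TPM. The lowest was Kcnj5, a potassium channel subunit best known from the heart, at 0.36 and 0.42 TPM. Among 10 genes for proteins that bind the receptor, the median was 47.6 TPM. App, whose product binds the sushi domain of GABA-B1a, was the highest at 620 and 637 TPM, followed by Nsf at 445 and 440 TPM and Hcn2 at 70.9 and 75.4 TPM, and Grk4 was the lowest at 2.02 and 2.55 TPM. Of the Kctd relatives, Kctd12b stood at 1.22 and 1.27 TPM. The other 7 relatives ranged from Kctd15 at 3.81 and 4.84 TPM through Kctd7 (5.72 and 4.85), Kctd5 (9.70 and 9.59), Kctd2 (35.0 and 33.6), Kctd1 (66.9 and 65.9) and Kctd13 (64.2 and 70.6) to Kctd17 at 142 and 137 TPM.

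All 31 genes listed as partners of gephyrin at the inhibitory synapse reached 1 TPM in both animals, with a median of 84.2 TPM against 27.52 and 30.07 TPM for Gphn. The highest were the motor gene Kif5a at 582 and 600 TPM and the dynein light chain genes Dynll1 at 328 and 283 TPM and Dynll2 at 286 and 289 TPM. The lowest was the glycine receptor subunit gene Glra3 at 3.74 and 4.06 TPM. Genes of the molybdenum cofactor, the metabolic side of gephyrin, were lower, with a median of 7.15 TPM over 9 genes. There Marc2 stood at 66.9 and 71.0 TPM, Mocs2 at 39.7 and 44.5 TPM, Xdh at 8.59 and 11.5 TPM, and Marc1 at 0.03 and 0.13 TPM. Among Slitrk genes, Slitrk1 (28.9 and 38.6 TPM) and Slitrk5 (29.2 and 35.4 TPM) lay above Slitrk3 in both animals. Slitrk4 (21.4 and 25.3 TPM), Slitrk2 (14.3 and 16.3 TPM) and Slitrk6 (0.38 and 0.71 TPM) lay below it. Of the receptor phosphatase genes, Ptprs stood at 240 and 259 TPM, Ptprd at 115 and 132 TPM, and Ptprf at 47.4 and 48.4 TPM. Iqsec3 was the lowest of the 3 Iqsec genes in both animals, with Iqsec1 at 165 and 174 TPM and Iqsec2 at 63.4 and 66.0 TPM. The other genes named of that list were Psd at 269 and 272 TPM, Arf1 at 193 and 202 TPM, and Cyth3 at 16.9 and 13.7 TPM. Among genes of GABA supply, Gad1, which makes GABA from glutamate, stood at 228 and 263 TPM, Abat, which breaks GABA down, at 84.9 and 92.4 TPM, and the transporter gene Slc6a11 at 43.8 and 51.3 TPM. None of the tested genes of these 8 lists differed by 2-fold between the animals, against the 0.861% of all genes.

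**Figure D5:**
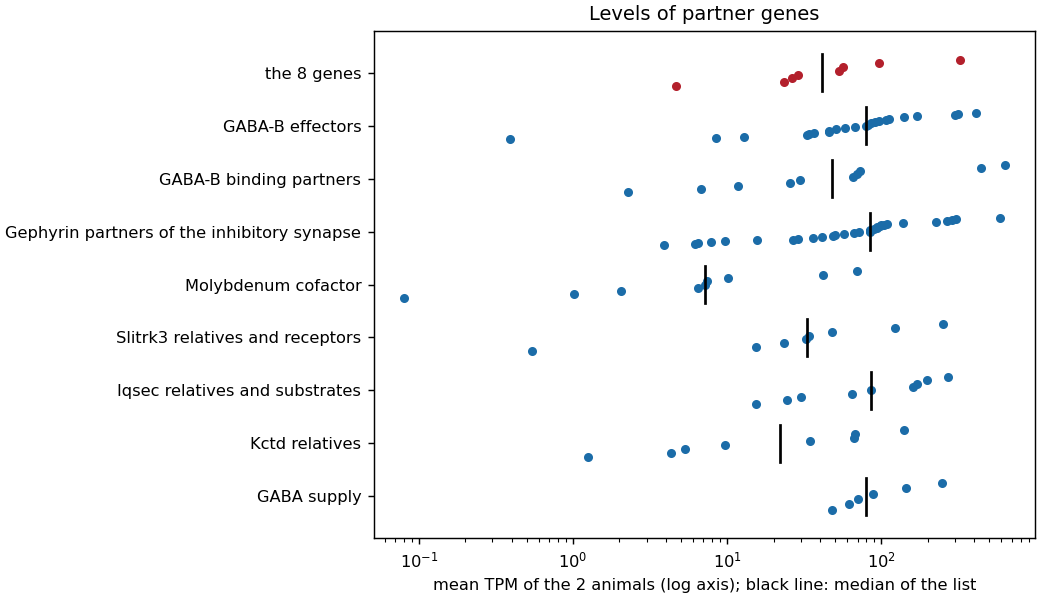
Mean TPM over the 2 animals (log axis) of the 8 genes in red and of the genes of each partner list in blue, 1 point per gene, with a black line at the median of each list. The molybdenum cofactor list has the lowest median, 7.15 TPM, and the lists of Iqsec relatives and gephyrin partners have the highest, 85.4 and 84.2 TPM.

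Promoter sequences from RefSeq (GRCm38.p6, 250 bases before to 50 after the start) matched 7 of the 8 genes, all but Kctd16. Their median GC content was 67.3%, against 52.7% over 32851 promoters, with a median of 19 CpG pairs against 7. The GC box GGGCGG, on either strand, was found in 5 of the 7 (Gabbr1, Gabbr2, Kctd12, Gphn and Iqsec3) and in 35.7% of all promoters. The letters TATAAA and CACGTG were in none of the 7, and in 13.6% and 7.15% of all promoters. TGACGTCA, the full cAMP response element, was in Kctd8 and in 1.79% of all promoters. These counts describe letters in a window, not binding.

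The 250 bases before the first Gabbr1 start are shown because this promoter gives the 1a forms (chr17:37045716-37045965, plus strand, GRCm38.p6 from RefSeq), with 2 GC boxes in capitals.
Gabbr1 first promoter: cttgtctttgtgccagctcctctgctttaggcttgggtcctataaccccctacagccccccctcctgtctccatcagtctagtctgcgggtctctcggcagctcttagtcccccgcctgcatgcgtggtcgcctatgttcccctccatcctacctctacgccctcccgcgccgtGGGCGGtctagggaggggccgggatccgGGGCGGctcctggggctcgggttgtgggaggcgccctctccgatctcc

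Markers of the labelled tissue were present in both libraries, with the excitatory neuron genes Camk2a at 1039 and 1077 TPM and Slc17a7 at 441 and 470 TPM. Genes listed for other brain regions were also found: all 6 striatal genes, all 4 hippocampal genes and 3 of 4 for habenula and thalamus reached 1 TPM in both animals, with list medians of 47.6, 7.59 and 8.59 TPM. Whether these values come from cortex or from tissue of those regions was not tested. Of the 4 cerebellar genes, Calb1, which cortical neurons are also known to express, stood at 48.5 and 56.1 TPM, Pcp2 and Cbln3 stayed below 1 TPM, and Gabra6 had no counts. The libraries differed in choroid plexus genes: the 6 markers summed to 735 TPM in replicate 1 and 6.98 TPM in replicate 2, and all 4 that could be tested were over 2-fold higher in replicate 1. Their part in the differences of the 8 genes between the animals was not tested. In bulk tissue, fewer cells of a type and less RNA per cell cannot be told apart.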

How the data were processed

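Total RNA was sequenced from 2 animals of a single group. For both libraries the authors deposited, per the file headers, gene and transcript tables with expected counts, TPM, FPKM, the percent of its gene held by each transcript, posterior mean TPM and TPM interval bounds, whose level is not stated (the first quantification, from alignments to the transcriptome). They also deposited a transcript table with estimated counts and TPM made from the reads, from 2 read files for replicate 1 and 1 for replicate 2 (the second quantification). Genome and annotation are mm10 and GENCODE M21 per the notes deposited with the files. The sources used here do not name the programs, their versions or the strand setting. Protein-coding genes held 46.4% and 66.2% of the TPM of the second quantification in replicates 1 and 2, so the plot of levels rescales both quantifications to these genes, while values of the second quantification elsewhere are as deposited.

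Members and gene lists were chosen with earlier results of these data known. Named were all 8 genes, transcripts with at least 10% of a gene in either animal, the 3 highest genes and the lowest of each partner list, and all Kctd, Slitrk and Iqsec relatives. A gene that this rule names is not reported here. Shares of a gene were computed from TPM. Expected counts were rounded, ribosomal RNA and spike-ins were left out (24688700 and 27440164 counts remained), and log2 ratios used CPM after TMM scaling (prior count 2) (edgeR 4.0.16, R 4.3.3). Counting intervals are exact 95% binomial intervals. The calculation was tested on simulated data. Alternatives used DESeq2 1.42.0 size factors, spike-ins, other units, filters and transcript sets. Python 3.11.15 and pandas 2.3.3 were used.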

Additional observations from a re-analysis of the deposited data

How the results depend on the processing

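No paired analysis was possible because the design holds a single group. The ratio of Gabbr1 to Gabbr2 was 3.56 in the second quantification, a mean of 3.93 and 3.18 that counts Gabbr1-211 for replicate 1 only. This ratio was 2.31 with full-length coding transcripts only, and ranged from 3.31 to 3.40 when either animal was left out. The ratio of Kctd12 to Kctd16 was 0.494 in the second quantification and 0.624 with full-length coding transcripts, and 0.415 to 0.460 with either animal left out. The share of the first Gabbr1 promoter was 26.9% by expected counts and 14.2% with full-length coding transcripts. With those transcripts, 4 of the 8 genes kept their place in the order of mean levels. The full-length setting was chosen after seeing the data. The count of genes at least 2-fold apart was 2895 of 55180 with no filter on low counts and 78 on log2(TPM + 1), against 122, with 0 of the 8 genes in each of these settings. The TPM moved by no more than the SD between the animals for 5 of the 8 genes as posterior mean TPM. The share of the leading transcript did so for 4 of the 8 genes in the second quantification and 3 by expected counts. With 2 animals, leaving out either always stays within that SD, so it is no check of these values. The log2 ratio between the animals left its counting interval for 3 genes with spike-in scaling and 2 on log2(TPM + 1). Depth limits Kctd8 most, and transcript shares rest on annotation and on reads unique to short stretches.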
